A study of Mus musculus with 9 samples.

Results

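The genes described here are those of the respiratory chain that are transcribed from the nuclear and from the mitochondrial genome, in the mouse cell line RAW264.7, an established line of macrophage-like cells. They were chosen by name: every row of the gene table whose symbol begins with Nduf, Uqcr, Cox4 to Cox8 or Atp5, or with mt-Nd, mt-Co, mt-Cy or mt-Atp. This gave 103 of 20627 rows, 90 nuclear and 13 mitochondrial. The 9 libraries form 3 groups of 3. NC is the control, for which no glucose concentration or time is given; HG cells were kept in 35 mmol/l glucose for 6 h; HG-SIG cells had the same glucose concentration and time together with sitagliptin phosphate, an inhibitor of dipeptidyl peptidase 4, at a dose not given in the sources used here. There is neither an osmotic control nor a group with sitagliptin and no added glucose, all libraries carry the same batch label, and no source states that replicates were grown separately. The p-values therefore reflect the spread between libraries alone, and that spread may be technical.

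The respiratory chain passes electrons from NADH and succinate to oxygen and pumps protons across the inner mitochondrial membrane, and ATP synthase (complex V) uses the proton gradient to make ATP. Complexes I, III, IV and V are mosaics. A handful of hydrophobic core proteins are made inside the organelle from mitochondrial DNA, while the larger number of core, accessory and assembly proteins are encoded in the nucleus and imported, so that each complex needs the products of both genomes. In macrophages, inflammatory activation is known to shift energy metabolism away from oxidative phosphorylation towards glycolysis.

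Among the nuclear members were 37 subunits of complex I (7 core and 30 accessory), 8 complex I assembly factors (Ndufaf1 to Ndufaf8), 8 subunits of complex III, 16 of complex IV and 17 of complex V. The supercomplex factor Cox7a2l, the paralogs Ndufb11b and Ndufa4l2 and the pseudogene Cox5b-ps made up the rest. Mitochondrial DNA contributed 7 subunits of complex I, mt-Cytb of complex III, 3 subunits of complex IV and 2 of complex V. Of the 103 members, 96 passed the filter on low counts, 83 nuclear and all 13 mitochondrial. The 7 that did not were Ndufb11b, Ndufa4l2, Cox5b-ps, Cox4i2, Cox6a2, Cox6b2 and Cox8b.

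Promoter sequence was available for 73 of the 90 nuclear members, as the 250 bases before the RefSeq start site (GRCm38.p6). Matches to 3 transcription factors known to act at such promoters were looked for by their letters, on both strands: NRF1 as GCATGCGC, the ETS family, which includes GABP, as CCGGAAG, and YY1 as AAGATGGC. The NRF1 letters, which overlap their own reverse complement where the site is palindromic, were found in 8 of 73 promoters, 10.96%, against 2.32% of the 27025 promoters of the table, and the ETS letters in 12, 16.4%, against 7.05%. The YY1 letters were in 0 of 73, against 1.59% of all, and 55 of the 73 held none of the 3. The median log2 fold change with sitagliptin, described further on, was -0.18 for the 8 tested genes with NRF1 letters and -0.17 for the 63 without, and -0.18 for the 12 with ETS letters and -0.17 for the 59 without. The 4 promoters shown belong to genes that bear the results that follow. Ndufs8 had the lowest fold change of all members with sitagliptin, Ndufaf7 the highest, and Ndufaf4 was higher in both glucose groups than in NC. Cox6a1 was among the many nuclear subunits called lower with sitagliptin on the TMM scale. Its promoter carries both an NRF1 and an ETS match and is not typical, as 55 of the 73 held none of the 3. Each is written 5′ to 3′ on the strand of the gene, with matches in capitals.
Ndufs8, chr19:3912775-3913024, minus strand: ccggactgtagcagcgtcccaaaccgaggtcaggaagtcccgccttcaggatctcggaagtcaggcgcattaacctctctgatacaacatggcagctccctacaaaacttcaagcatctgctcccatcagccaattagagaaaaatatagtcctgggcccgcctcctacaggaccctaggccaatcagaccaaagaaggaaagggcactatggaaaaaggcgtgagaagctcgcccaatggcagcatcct
Ndufaf7, chr17:78936885-78937134, plus strand: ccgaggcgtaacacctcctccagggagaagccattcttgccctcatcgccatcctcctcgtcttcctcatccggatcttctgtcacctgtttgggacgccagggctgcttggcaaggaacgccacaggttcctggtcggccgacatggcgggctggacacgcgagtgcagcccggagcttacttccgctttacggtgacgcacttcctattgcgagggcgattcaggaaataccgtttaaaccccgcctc
Ndufaf4, chr4:24897833-24898082, plus strand: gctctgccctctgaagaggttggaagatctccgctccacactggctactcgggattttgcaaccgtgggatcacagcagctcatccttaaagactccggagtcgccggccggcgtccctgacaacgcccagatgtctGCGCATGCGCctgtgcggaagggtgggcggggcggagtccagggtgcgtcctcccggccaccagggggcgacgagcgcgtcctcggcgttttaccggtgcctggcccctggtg
Cox6a1, chr5:115348959-115349208, minus strand: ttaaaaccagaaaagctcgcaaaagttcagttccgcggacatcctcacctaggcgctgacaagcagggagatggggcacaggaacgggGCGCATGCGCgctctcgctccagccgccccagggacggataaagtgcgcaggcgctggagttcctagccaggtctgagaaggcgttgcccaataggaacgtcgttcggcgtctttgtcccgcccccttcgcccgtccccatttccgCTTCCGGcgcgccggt
The Ndufaf4 promoter has overlapping NRF1 matches, 1 on each strand, that begin 113 and 111 bases before the start. Cox6a1 has such a pair 162 and 160 bases before the start and an ETS match 16 bases before it. Ndufs8 and Ndufaf7, which lay at opposite ends of the response, had no match in these windows, which says only that those letters are not there.

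Library totals ran from 23285821 to 31571578 counts, so that 3 counts corresponded to 0.095 to 0.129 CPM (counts normalised to the size of the library). Mitochondrial members took 3.44% to 4.05% of all counts and nuclear members 0.921% to 1.02%. HG replicate 3 stood apart from its group: chi-square per gene was 8.31 to 9.14 between it and the other HG libraries, against 2.82 to 5.92 for every other pair of replicates. All 8 macrophage markers looked for (Cd68, Csf1r, Adgre1, Lyz2, Itgam, Spi1, Cd14 and Fcgr1) were detected, and summed markers of epithelial cells, lymphocytes and fibroblasts stayed at or below 0.19 CPM in every library. Those sums cover only the markers with a row in the gene table, 3 of 4 epithelial, 3 of 5 lymphocyte and 2 of 4 fibroblast. Levels below are CPM scaled by TMM, a method that sets the bulk of genes level between libraries. TMM factors ran from 0.948 to 0.954 for NC libraries, from 0.961 to 0.977 for HG and from 1.08 to 1.09 for HG-SIG, so that the choice of scaling weighs on every comparison with HG-SIG.

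Per kilobase of exon, mitochondrial mRNAs were far more abundant than nuclear ones. In NC the 13 mitochondrial genes had a median of 1501 CPM per kb, from 152 for mt-Nd6, the subunit gene on the other strand of the mitochondrial genome, to 9167 for mt-Co1, the catalytic subunit of cytochrome oxidase. Nuclear subunits had medians of 33.8 CPM per kb for complex I, 85.1 for complex III, 118 for complex IV and 48.2 for complex V, and Atp5b, the catalytic beta subunit of ATP synthase, was the highest at 362. Whether oligo(dT) selection recovered mitochondrial mRNAs, known for short poly(A) tails, as well as nuclear ones was not tested.

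With high glucose alone, few genes of the chain were called. Against a background of 29.5% of all 13311 genes called between HG and NC (edgeR's quasi-likelihood test, adjusted p under 0.05), 3 of 83 nuclear members were called, 3.61%, and 2 of 13 mitochondrial members. By direction these were 2 nuclear and 2 mitochondrial members higher and 1 nuclear member lower, where 14.3% of all genes were called higher and 15.2% lower. With library size alone the nuclear calls were 6 higher and 0 lower, where 18.6% and 13% of all genes were called, and with limma 9 higher and 2 lower, where 19.6% and 13.6% were. Libraries of HG and NC were fully separate for 4 nuclear members that were higher (Ndufs3, Ndufb3, Ndufaf4 and Ndufb10), 3 that were lower (Ndufs4, Ndufaf3 and Ndufaf8) and mt-Nd1, where 20.8% of all genes were so in each direction. The median log2 fold change was 0.02 over nuclear members and 0.04 over mitochondrial members, against 0.003 over all genes. Of the 43 tested subunits of complexes III, IV and V from both genomes, 0 were called by edgeR and 0 by DESeq2, with 1 at an unadjusted p under 0.05 in each; library size alone called 1 higher in complex V, and limma 1 in complex III and 2 in complex V. A p that misses the threshold does not show equal levels, and the test recovered 38.8% of genes changed by 0.25 (log2) in simulated data. That simulation changed 200 genes drawn at all levels, where 3927 of 13311 were called here, which makes its threshold stricter. The share therefore does not give the power for chain genes.

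Of the 3 nuclear calls, 2 were complex I assembly factors, which build the enzyme without staying in it. Ndufaf4 (ENSMUSG00000028261, chr4:24898083-24905001), an early assembly factor, had 63.7, 63.8 and 66.7 CPM in NC and 79.1, 77.7 and 75.8 in HG. It rose by 0.26 ± 0.04 (log2, SE, adjusted p = 0.000304, edgeR), with every HG library above every NC library. Its known partner in early assembly, Ndufaf3, was at 13.6, 13.4 and 12.7 CPM in NC and at 11.6, 11.8 and 10.5 in HG. It fell by 0.23 ± 0.08 (adjusted p = 0.0403, edgeR), a call lost with DESeq2 and on leaving out any of 7 single libraries. The third was Ndufb10, an accessory subunit of the membrane arm, at 65.6, 68.0 and 59.3 CPM in NC and 72.0, 80.3 and 69.6 in HG. It rose by 0.20 ± 0.06 (adjusted p = 0.0198, edgeR), a call lost without NC replicate 3 or HG replicate 2. Without HG replicate 3, 10 nuclear members were called, all higher in HG, and without NC replicate 3 only 1 was.

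Both mitochondrial calls were adjacent complex I genes. mt-Nd1, a core subunit at the quinone site (bases 2751 to 3707 of the mitochondrial chromosome), had 2616, 2578 and 2908 CPM in NC and 3176, 3310 and 3229 in HG, without overlap. It rose by 0.26 ± 0.05 (adjusted p = 0.00127, edgeR), and the call held under every alternative run. mt-Nd2, a membrane arm core subunit (3914 to 4951), was at 1186, 1137 and 1381 CPM in NC and 1407, 1351 and 1456 in HG, where the groups overlap. Its rise of 0.19 ± 0.06 (adjusted p = 0.044, edgeR) was no longer called on leaving out NC replicate 1, NC replicate 2, HG replicate 1, HG replicate 3, HG-SIG replicate 1 or HG-SIG replicate 2, so that 1 mitochondrial member remained called in each case. mt-Cytb, the heme-bearing catalytic subunit of complex III, was at 4840, 4400 and 5051 CPM in NC and at 4807, 4601 and 4811 in HG.

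With sitagliptin, chain genes of both genomes lay below the typical gene. Between HG-SIG and HG, 50 of 83 nuclear members were called lower and 1 higher, and 8 of 13 mitochondrial members lower and 0 higher, where 52.5% of all genes tested were called, 26.8% lower and 25.7% higher. The median log2 fold change was -0.17 for nuclear and -0.21 for mitochondrial members, against 0.01 for all genes under TMM; the nuclear median stood at the 28.5th percentile of all genes and the mitochondrial one at the 25.4th. These are falls only on that scale: scaled by library size alone, which shifts the median of all genes to 0.17, 6 nuclear members were called lower and 7 higher (median -0.01) and 1 mitochondrial member each way (median -0.04), where 13.7% of all genes were called lower and 45.8% higher. On limma's log2(TPM + 1) scale, where all genes have a median of 0.19, 3 nuclear members were called lower and 15 higher (median 0.03) and 0 mitochondrial members lower and 1 higher, where 12.1% of all genes were called lower and 54.7% higher. The share of higher calls among all calls went from 48.9% with TMM to 76.9% with library size and 81.9% with limma. Relative to the median of all genes, the nuclear median stayed between -0.18 and -0.15 and the mitochondrial one between -0.22 and -0.19 under every scaling, filter and tool run. Over all settings, left-out libraries included, the nuclear median ran from -0.25 to -0.15 and the mitochondrial one from -0.22 to -0.18.

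**Figure D1:**
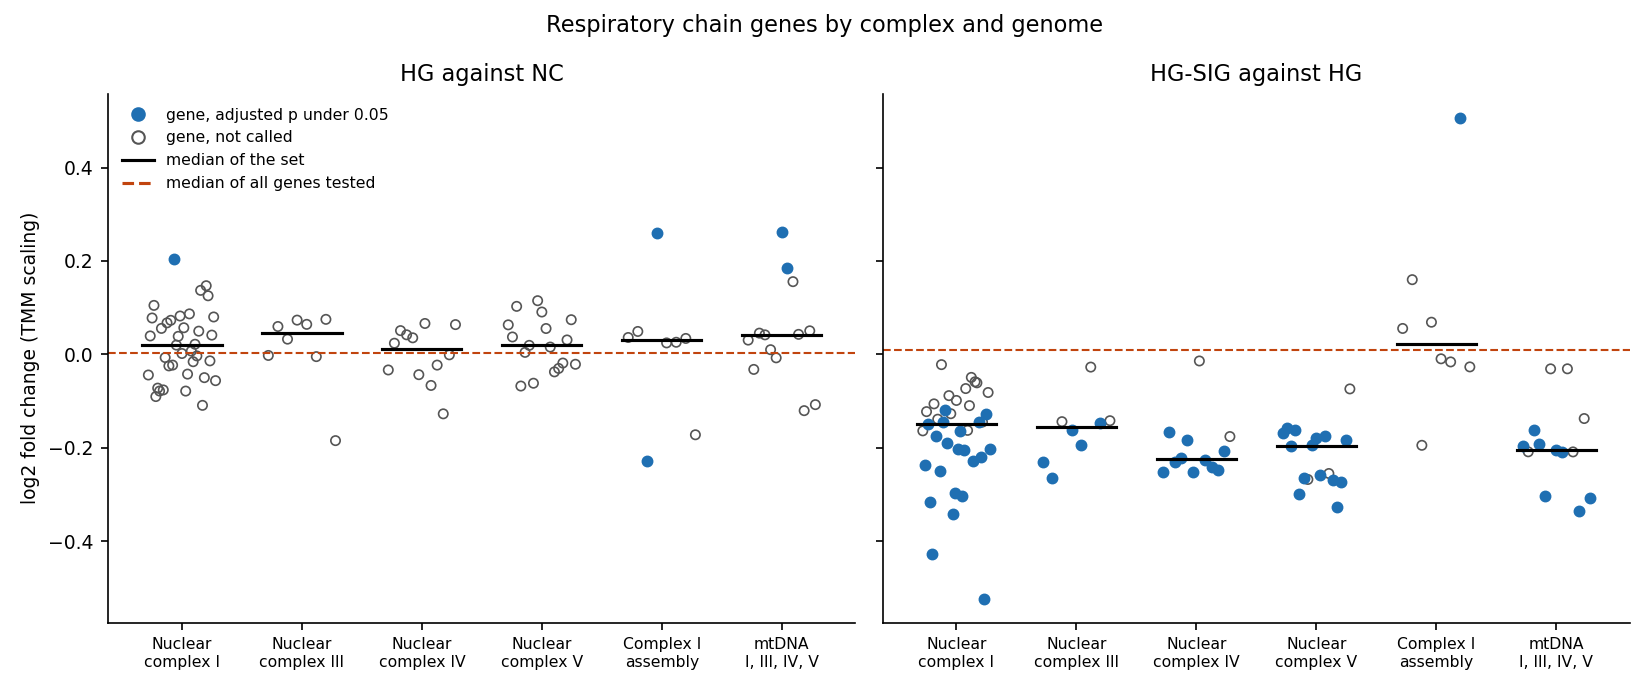
Log2 fold change (TMM scaling) of each tested member in HG against NC and in HG-SIG against HG, in columns for nuclear subunits of complexes I, III, IV and V, complex I assembly factors and mitochondrially encoded genes; Cox7a2l is not drawn. Filled points passed an adjusted p under 0.05, black lines are medians of each column and the dashed line is the median of all genes tested; the columns lie around that line in the first panel and, except for assembly factors, below it in the second, a fall that library-size scaling and limma do not show as one.

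**Figure D2:**
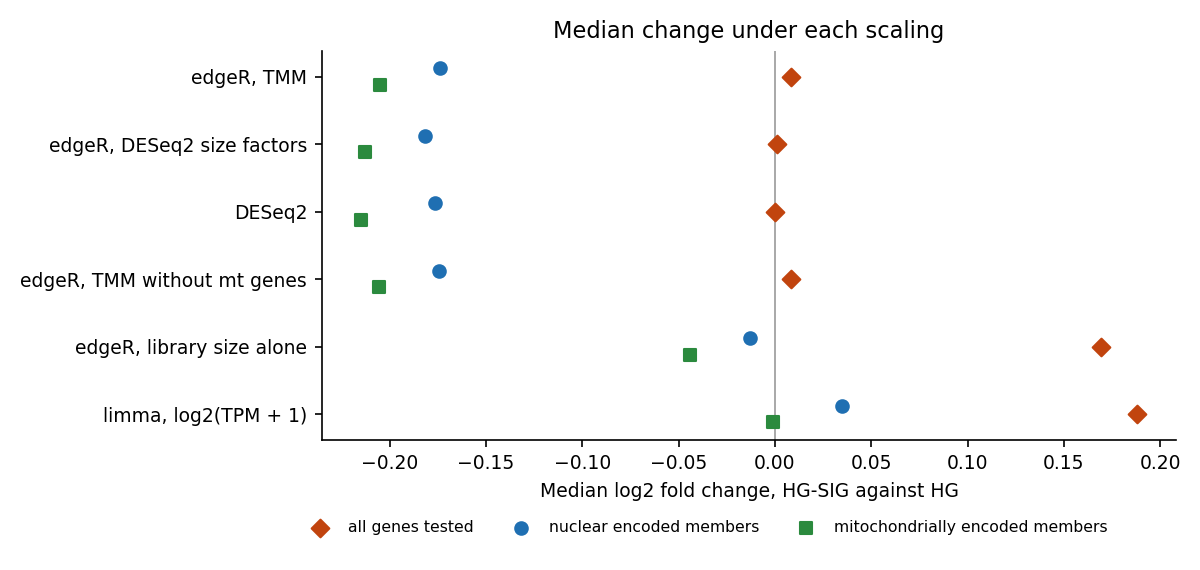
Median log2 fold change, HG-SIG against HG, of all genes tested (diamonds), nuclear members (circles) and mitochondrial members (squares) under 6 combinations of scaling and tool. The distance from the diamond to the other symbols is alike in each row, while the zero line falls beside the members with library size alone and with limma, and beside all genes with the other 4.

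As a share of all counts, the summed chain genes of HG and HG-SIG differed by less than 1 SD. The 78 nuclear subunits took 0.953% ± 0.049 of counts in HG and 0.942% ± 0.022 in HG-SIG (SD, n = 3), and the 13 mitochondrial genes 3.94% ± 0.099 and 3.91% ± 0.082. In NC the shares were 0.916% ± 0.023 and 3.72% ± 0.257. The 3 ranges overlapped for both genomes. In these bulk samples, fewer cells of a type and less RNA per cell cannot be told apart.

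The nuclear subunits lay on the same side of the median gene, and their medians differed by complex, a difference that was not tested. With TMM all 74 tested subunits had a fold change below the median of all genes in HG-SIG against HG. Complex IV had the lowest median, -0.22 with 10 of 12 subunits called lower on the TMM scale, then complex V with -0.20 and 14 of 17, complex III with -0.16 and 5 of 8, and complex I with -0.15 and 21 of 37. Within complex I, 3 of 7 core and 18 of 30 accessory subunits were called lower. With library size alone, 0 of the 29 nuclear subunits of complexes IV and V were called and 0 had an unadjusted p under 0.05, 1 of complex III was higher, core subunits of complex I were 1 higher and 1 lower, and accessory subunits 0 higher and 5 lower. With limma the calls in complexes III, IV and V were the same in number, core subunits were 3 higher and 1 lower, and accessory subunits 3 higher and 2 lower. Every HG-SIG library lay under every HG library on the TMM scale for 33 of 83 nuclear and 10 of 13 mitochondrial members, where 28.8% of all genes showed this. The reverse held for 2 nuclear members, Ndufaf7 and Ndufaf4, where 29.9% of all genes showed it. The nuclear count depended on single libraries: 33 members were called without HG replicate 1, 29 without HG replicate 2 and 30 without HG-SIG replicate 3. The mitochondrial count was 5 without HG-SIG replicate 1.

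Ndufs8 stood lowest of all. This core complex I subunit carries iron-sulfur clusters on the path to quinone (ENSMUSG00000059734, chr19:3908863-3912774). It had 83.4, 91.2 and 85.9 CPM in NC, 86.3, 90.0 and 81.4 in HG, and 63.8, 60.6 and 55.0 in HG-SIG, so that every HG-SIG library lay well under the others. It fell by 0.52 ± 0.06 against HG (adjusted p = 9.37e-06, edgeR) and by 0.54 ± 0.06 against NC (adjusted p = 4.5e-06), and did so under every alternative run, both other scalings included. Other core subunits lay nearer to the median gene: Ndufs1, the largest, was at -0.05 ± 0.04 (adjusted p = 0.274) and Ndufs7, the neighbour of Ndufs8 in the electron path, at -0.14 ± 0.06 (adjusted p = 0.0731). The ratio of Ndufs8 to Ndufs7, free of library scaling, was 1.85, 1.86 and 1.89 in NC, 1.67, 1.63 and 1.80 in HG, and 1.35, 1.33 and 1.23 in HG-SIG. The 3 groups did not overlap; this ratio was chosen after the values were seen.

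Next lowest was Ndufa2, an accessory subunit of the NADH-oxidising arm, with 54.0, 55.4 and 51.0 CPM in NC, 53.9, 54.2 and 44.0 in HG and 36.7, 39.0 and 37.6 in HG-SIG. It fell by 0.43 ± 0.07 against HG (adjusted p = 0.000227, edgeR), again under every alternative run; 11.5% of its exonic length is shared with Tmco6, and the strand setting of the counting is not given in the sources used here. After Ndufa2, the lowest accessory subunits of complex I were Ndufb2, Ndufa13 and Ndufb7. Ndufb2, of the membrane arm, was at 23.2, 23.5 and 20.7 CPM in HG and 17.8, 18.9 and 16.7 in HG-SIG, and fell by 0.34 ± 0.07 (adjusted p = 0.00142). Ndufa13, which links the matrix and membrane arms and shares 30% of its exonic length with Tssk6, went from 37.9, 37.3 and 34.5 CPM to 29.1, 30 and 29.2, and fell by 0.32 ± 0.06 (adjusted p = 0.000413). Ndufb7, on the outer face of the membrane arm, went from 57.9, 60.2 and 53.4 to 45.5, 48.9 and 44.6 and fell by 0.30 ± 0.05 (adjusted p = 0.0005). For these 3 the groups did not overlap, and the calls held with library size alone but not on limma's scale, where they were at -0.12, -0.11 and -0.09.

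In complex V the lowest was Atp5md, a small membrane subunit that helps ATP synthase form dimers, with 67.3, 69.6 and 53.9 CPM in HG and 50.5, 52.0 and 50.0 in HG-SIG. It fell by 0.33 ± 0.08 (adjusted p = 0.00373, edgeR), to -0.17 and -0.11, neither called, with library size alone and limma. The abundant catalytic subunit Atp5b was at 1555, 1557 and 1492 CPM in NC, 1554, 1630 and 1541 in HG and 1397, 1458 and 1379 in HG-SIG, a difference of -0.16 ± 0.04 between the last 2 (adjusted p = 0.00371). The c-ring, which turns with proton flow, is encoded by Atp5g1, Atp5g2 and Atp5g3. Per kilobase of merged exons Atp5g3 was highest at 120 CPM per kb in NC, against 6.87 for Atp5g1 and 5.99 for Atp5g2. The merged lengths differ, 2181 bases for Atp5g3, 4912 for Atp5g1 and 1675 for Atp5g2. In counts Atp5g3 was 7.07 to 8.28 times Atp5g1 in NC. With sitagliptin they were at -0.26, -0.27 and -0.19 on the TMM scale, of which Atp5g1 and Atp5g3 were called.

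In complex III the 8 nuclear subunits that fit the naming rule ran from -0.26 for Uqcr11, a small accessory subunit, to -0.03 for Uqcrfs1, the Rieske iron-sulfur protein. Cyc1, another nuclear subunit of this complex, lies outside the rule and is counted below with the electron carriers. It was at -0.10 (adjusted p = 0.108, edgeR). Uqcrfs1 was at 122, 122 and 112 CPM in HG and 117, 120 and 114 in HG-SIG, where the groups overlap. Its mitochondrially encoded counterpart in the catalytic core, mt-Cytb, was likewise at -0.03 ± 0.05 (adjusted p = 0.602, edgeR).

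Complex IV subunits of the ubiquitous kind were close together. Cox4i1, the common isoform of the regulatory subunit, had 363, 358 and 331 CPM in NC, 349, 359 and 320 in HG and 296, 286 and 282 in HG-SIG. It fell by 0.25 ± 0.05 against HG on the TMM scale (adjusted p = 0.000995, edgeR) and was at -0.09 and -0.045, not called, with library size alone and limma. Cox5a, Cox5b, Cox6a1, Cox6b1, Cox6c, Cox7a2, Cox7b, Cox7c and Cox8a were at -0.25 to -0.17 and were called lower on the TMM scale. Ndufa4, once assigned to complex I, was at -0.18 (adjusted p = 0.064). Cox7a2l, which joins complexes III and IV into supercomplexes, was at 126, 131 and 118 CPM in HG and 122, 125 and 120 in HG-SIG, a difference of -0.03 ± 0.04 with TMM and of 0.13 and 0.17 with library size alone and limma.

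Tissue-restricted isoforms were scarce. Cox4i2, known from lung and hypoxia, had 24 counts over the NC libraries, 22 over HG and 14 over HG-SIG. The muscle isoform Cox7a1 was barely detected, with a mean CPM of 0.888 ± 0.151 for NC, 0.927 ± 0.201 for HG and 0.917 ± 0.151 for HG-SIG (SD, n = 3). Cox8b and Cox6b2 had 1 count each over all libraries, and Ndufa4l2, a paralog induced by hypoxia, had at most 3 in any library. Cox6a2, the muscle isoform of Cox6a1, had 16, 12 and 10 counts in NC, 3, 9 and 1 in HG and 1, 4 and 3 in HG-SIG, so that every glucose library had fewer counts than every NC library; after scaling, HG replicate 2 (0.353 CPM) lay above NC replicate 3 (0.334). Over the summed counts of each group, scaled, the NC to HG ratio was 2.67 (exact 95% interval 1.39 to 5.46) and the NC to HG-SIG ratio 5.43 (2.50 to 13.5), intervals that cover counting error only.

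**Figure D3:**
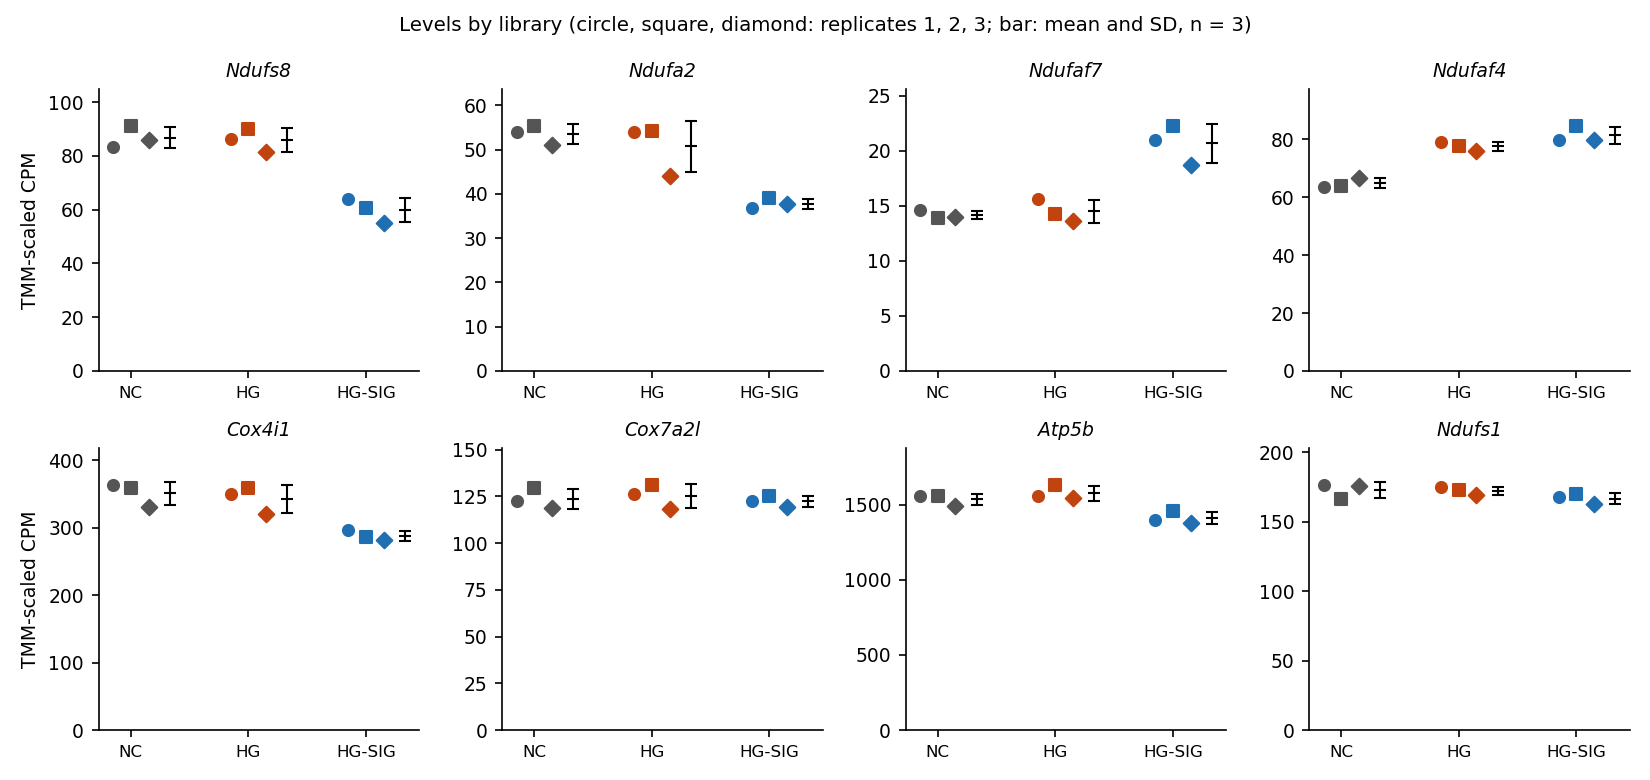
TMM-scaled CPM of 8 members by group; circles, squares and diamonds are replicates 1, 2 and 3, and the bar beside them is the mean with SD (n = 3). Ndufs8 and Ndufa2 are lower in HG-SIG than in every other library and Ndufaf7 is higher, Ndufaf4 is higher in both glucose groups than in NC, and Cox7a2l and Ndufs1 overlap throughout.

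Complex I assembly factors had a higher median than its subunits, a difference that was not tested. Of 8, 1 was called higher and 0 lower in HG-SIG against HG, with a median of 0.02. With library size alone 4 were called higher and 0 lower (median 0.18), where 45.8% of all genes were higher and their median was 0.17, and with limma 7 and 0 (median 0.23), where 54.7% were higher and the median was 0.19. Their medians thus lay close to that of all genes under each scaling. Ndufaf7 (ENSMUSG00000024082, chr17:78937136-78948052), a methyltransferase that acts during assembly of the complex, was at 14.6, 13.9 and 14.0 CPM in NC, 15.6, 14.3 and 13.6 in HG and 20.99, 22.3 and 18.8 in HG-SIG. It rose by 0.51 ± 0.08 against HG (adjusted p = 0.000116, edgeR) and by 0.54 ± 0.07 against NC (adjusted p = 4.51e-05), with no overlap and under every alternative run. Ndufaf4 was at 79.7, 84.7 and 79.7 CPM in HG-SIG, 0.33 ± 0.04 above NC (adjusted p = 1.25e-05) and 0.07 ± 0.04 above HG (adjusted p = 0.157). Ndufaf3 was at 10.8, 9.22 and 9.63 CPM, 0.42 ± 0.08 below NC (adjusted p = 0.000389).

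Mitochondrial members likewise lay below the median gene in HG-SIG against HG. Complex I genes had a median of -0.21 with 4 of 7 called lower on the TMM scale, all 3 mt-Co genes were called lower, and mt-Atp6 was called and mt-Atp8 was not; mt-Atp8 shares 21.1% of its length with mt-Atp6. mt-Co3, a core subunit of cytochrome oxidase (8607 to 9390), was at 4260, 3889 and 4301 CPM in NC, 4080, 4146 and 4311 in HG and 3385, 3419 and 3361 in HG-SIG. It fell by 0.30 ± 0.04 (adjusted p = 6.99e-05, edgeR), a call that held with library size alone but not on limma's scale (-0.10). mt-Cytb (14145 to 15288) was at 4554, 4699 and 4664 CPM in HG-SIG and overlapped HG. It differed from HG by -0.03 ± 0.05 with TMM, and by 0.13 and 0.17 with library size alone and limma. mt-Nd4l and mt-Nd6 had the lowest fold changes of the 13, -0.33 ± 0.12 (adjusted p = 0.0298) and -0.31 ± 0.12 (adjusted p = 0.0454), and neither was called with DESeq2. Counts of mt-Nd4 over those of mt-Nd4l, whose sequences overlap, ran from 19.8 to 20.7 in NC and 20.9 to 23.6 in HG. In HG-SIG they ran from 22.3 to 29.1, overlapping HG. What moved this ratio was not tested.

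Summed over all complexes, the balance of the 2 genomes did not move beyond the spread of the libraries. Such sums give most weight to abundant genes, with mt-Co1 alone at 35.7% to 36.9% of mitochondrial counts. Summed mitochondrial over summed nuclear subunit counts, a ratio that no library scaling can change, was 4.12, 3.66 and 4.41 in NC, 3.997, 3.92 and 4.52 in HG and 4.02, 4.09 and 4.34 in HG-SIG. All 3 groups overlap. On the log2 scale the group means were 2.02, 2.05 and 2.05. HG differed from NC by 0.03, HG-SIG from HG by 0.003 and HG-SIG from NC by 0.03, each less than the SD between libraries of a group, and no test is given for a sum over genes chosen by name. Complex by complex the ratio ran from 2.98 to 4.02 for complex I, 4.47 to 5.54 for complex III, 12.5 to 15.7 for complex IV and 0.57 to 0.71 for complex V, and the 3 groups overlap in each. For complex III, HG-SIG was 0.12 above HG on the log2 scale. This is more than the SD of either group, 0.10 in HG and 0.055 in HG-SIG, and was not tested.

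**Figure D4:**
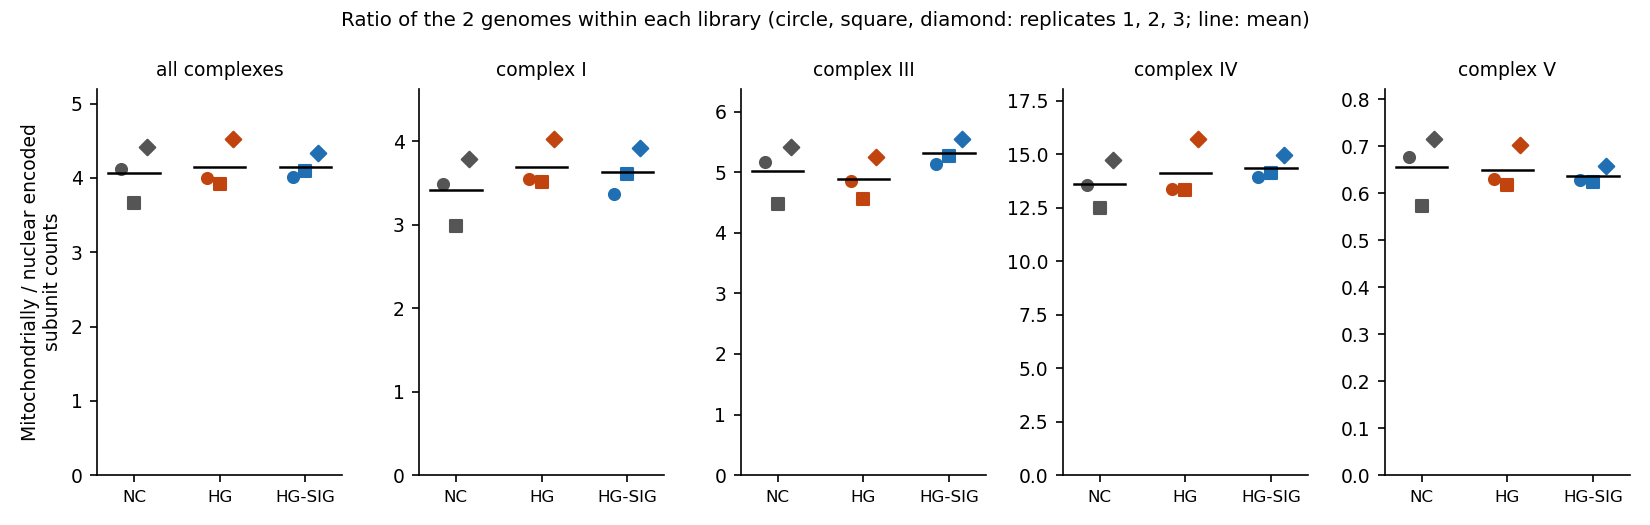
Ratio of summed mitochondrially encoded to summed nuclear encoded subunit counts in each library, for all complexes and for complexes I, III, IV and V (linear axes from 0); circles, squares and diamonds are replicates 1, 2 and 3 and lines are group means. The 3 groups overlap in all 5 panels.

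Within the mitochondrial set, the shares of some genes differed between groups while the main component held. Shares in HG and NC were fully separate for mt-Nd1 and mt-Nd2 (higher in HG) and mt-Cytb (lower). Those in HG-SIG and HG were so for mt-Cytb (higher in HG-SIG), mt-Co3 and mt-Atp6 (lower). The other genes overlapped. On TMM-scaled levels, 20.8% of all genes were separate in each direction in HG against NC. In HG-SIG against HG, 29.9% were separate higher and 28.8% lower. mt-Co1 took 35.7% to 36.9% of mitochondrial counts in every library. mt-Nd1 took 6.61%, 7.12% and 7.00% in NC, 7.91%, 8.23% and 7.78% in HG and 7.62%, 7.98% and 7.78% in HG-SIG, higher in all glucose libraries than in NC. mt-Co3 took 10.8%, 10.7% and 10.3% in NC, 10.2%, 10.3% and 10.4% in HG and 9.61%, 9.40% and 9.20% in HG-SIG. mt-Cytb took 12.2%, 12.1% and 12.1% in NC, 11.98%, 11.4% and 11.6% in HG and 12.9%, 12.9% and 12.8% in HG-SIG, so that these neighbours in abundance parted in HG-SIG. The ratio of mt-Cytb to mt-Co3 was 1.14, 1.13 and 1.17 in NC, 1.18, 1.11 and 1.12 in HG and 1.35, 1.37 and 1.39 in HG-SIG. HG-SIG was 0.27 above HG on the log2 scale without overlap, a ratio chosen after the values were seen and therefore given without a test.

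**Figure D5:**
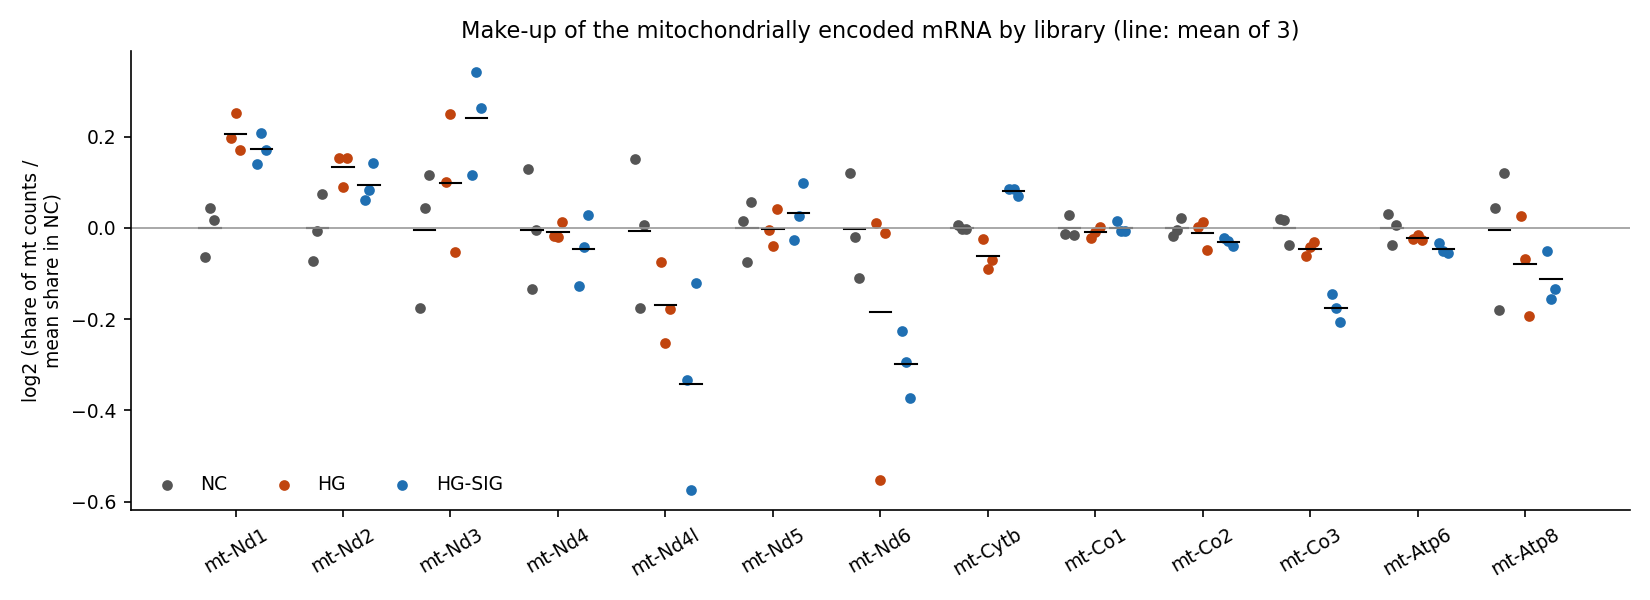
Share of each mitochondrially encoded gene in all mitochondrial counts of a library, as log2 of that share over its mean share in NC; each point is a library and each line a mean of 3. mt-Nd1 is higher in all HG and HG-SIG libraries than in NC, mt-Co3 is lower and mt-Cytb higher in all HG-SIG libraries, and the rare mt-Nd4l and mt-Nd6 scatter widely.

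HG-SIG against NC, which shares its libraries with the comparisons above, gave 46 nuclear members called lower and 2 higher (Ndufaf7 and Ndufaf4), and 7 mitochondrial members lower and 0 higher, where 58.6% of all genes were called, 28.7% lower and 29.9% higher. Medians were -0.16 and -0.15 with TMM, against 0.02 for all genes. With library size alone, where all genes had a median of 0.21, the direction turned: 18 nuclear members were called higher and 5 lower, and 4 mitochondrial members higher and 1 lower, where 51% of all genes were called higher and 15.9% lower. With limma 32 nuclear members were called higher and 4 lower, and 4 mitochondrial members higher and 0 lower, where 58.6% of all genes were higher and 14.5% lower. Libraries were fully separate on the TMM scale for 48 nuclear and 5 mitochondrial members lower in HG-SIG, where 31.7% of all genes were so, and for 4 nuclear members higher (Ndufaf7, Ndufaf4, Ndufb10 and Ndufaf2), where 34.2% were. Of the exonic length of Ndufaf2, 65.6% is shared with B230220B15Rik on the other strand, and the strand setting of the counting is not given. Complex IV had 9 of 12 nuclear subunits called lower on the TMM scale, complex V 12 of 17, complex I 19 of 37 and complex III 4 of 8. The nuclear count was 31 without HG-SIG replicate 3, and the mitochondrial count was 4 without NC replicate 1 and 3 without HG-SIG replicate 1. mt-Nd1, called higher in HG, was at 2684, 2904 and 2840 CPM in HG-SIG and overlapped NC (0.06 ± 0.05, adjusted p = 0.337, edgeR), while with library size alone it was 0.25 above NC and called.

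The macrophage markers moved far more than the chain. Between HG-SIG and HG all 8 were called lower with TMM, 7 with library size alone and 6 with limma, with medians of -0.73, -0.57 and -0.52. In CPM by library size alone, not scaled by TMM, their summed level was 9541 to 10178 in HG, 5458 to 5559 in HG-SIG and 10291 to 10743 in NC. Their part in the chain's result was not tested.

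Genes that serve the chain without belonging to the named families were taken from lists of the pathway. The shares of all genes to set beside the counts of these lists in HG-SIG against HG are 25.7% higher and 26.8% lower with TMM, 45.8% and 13.7% with library size alone, and 54.7% and 12.1% with limma. A first list held 9 genes of complex II and the electron carriers, Cyc1 of complex III included. Of these, 1 was called higher and 4 lower in HG-SIG against HG with TMM (median -0.10). With library size alone 3 were higher and 0 lower (median 0.06), and with limma 4 and 0 (median 0.10). Etfdh, which feeds electrons from fatty acid oxidation into the quinone pool, had a mean of 57.3 ± 1.33 CPM for NC, 69.0 ± 2.63 for HG and 90.5 ± 2.86 for HG-SIG (SD, n = 3). It rose by 0.27 from NC to HG (adjusted p = 0.000354, edgeR) and by 0.39 from HG to HG-SIG (adjusted p = 6e-06), and was called higher under all 3 scalings. Sdhc, a membrane anchor of complex II, fell by 0.23 (adjusted p = 0.000703) and Etfb, an electron carrier of the matrix, fell by 0.24 (adjusted p = 0.000407) on the TMM scale; they were at -0.06 and -0.08 with library size alone, not called.

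Of 33 further assembly factors, the calls for sitagliptin under high glucose were 7 higher and 7 lower with TMM, 13 and 1 with library size alone, and 18 and 1 with limma. The numbers called higher, 13 and 18 of 33, are near the 45.8% and 54.7% of all genes. Uqcc2, an assembly factor of complex III, fell by 0.40 (adjusted p = 0.00054, edgeR) and Ttc19, another, rose by 0.35 (adjusted p = 0.000449), and both kept call and direction under the other 2 scalings. Among 24 genes that replicate mitochondrial DNA or make and process its RNA, 3 were higher and 8 lower with TMM, 11 and 3 with library size alone, where 45.8% of all genes were higher, and 15 and 2 with limma. Ssbp1, the single-stranded DNA binding protein of mitochondrial replication, fell by 0.37 (adjusted p = 2.12e-06), Fastkd3, an RNA-binding protein, by 0.42 (adjusted p = 3.56e-05) and Slirp, which stabilises mitochondrial mRNAs, by 0.25 (adjusted p = 0.00764); the call of Slirp was lost with library size alone and limma, while Ssbp1 and Fastkd3 stayed lower. Tfam, which packages mitochondrial DNA and starts its transcription, was at -0.01 (adjusted p = 0.906), though at 0.15 and 0.20 and called with library size alone and limma, and Tfb1m, a methyltransferase of mitochondrial ribosomal RNA, rose by 0.32 (adjusted p = 0.00235) under all 3.

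Among 8 measured nuclear regulators of these genes, 1 was called higher and 2 lower in HG-SIG against HG with TMM and with library size alone, and 2 and 2 with limma. Nrf1 was called in no comparison with TMM, and in HG-SIG against NC it was at 0.19 and 0.22 and called with library size alone and limma. Gabpa rose by 0.14 with sitagliptin (adjusted p = 0.0190, edgeR). Pprc1, a coactivator of the PGC-1 family, rose by 0.18 in HG (adjusted p = 0.00947) and fell by 0.50 with sitagliptin (adjusted p = 2.09e-06), and its relative Ppargc1b rose by 0.41 in HG (adjusted p = 0.000219). Myc, a transcription factor that can act on many of these genes, had a mean of 18.9 ± 1.66 CPM for NC, 2.57 ± 0.635 for HG and 0.23 ± 0.086 for HG-SIG (SD, n = 3). The HG-SIG value is not far above the floor of 3 counts, 0.095 to 0.129 CPM. Of 11 genes for defence against reactive oxygen and for transport across mitochondrial membranes, 4 were called lower and 0 higher with sitagliptin under TMM, where library size alone gave 1 lower and 3 higher and limma 1 lower and 5 higher. Ucp2, an inner membrane carrier of the uncoupling protein family, fell by 0.60 (adjusted p = 4.7e-08), as it did under the other 2 scalings, and the outer membrane channels Vdac1 and Vdac2 fell by 0.17 and 0.23 on the TMM scale, with no call on the others. In HG against NC, Sod2, the superoxide dismutase of the matrix, fell by 0.30 (adjusted p = 0.000119) and the peroxidase Prdx5 by 0.39 (adjusted p = 0.000145).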

How the data were processed

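Polyadenylated RNA of RAW264.7 cells was sequenced in 9 libraries. The authors deposited gene counts, 1 column per library, all whole numbers; Bowtie2 2.3.5, RSEM and mm10 were used, per the submitters' processing notes. How reads shared by gene copies were counted, the annotation and the strand setting were not given in the sources used here. Totals of 23285821 to 31571578 counts set a floor of 3 counts at 0.095 to 0.129 CPM.

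Groups and replicate numbers came from titles, glucose and time from the series design. Counts were filtered with filterByExpr (13311 genes), scaled with TMM and tested with edgeR 4.0.16 (R 4.3.3, quasi-likelihood, 1 mean per group, Benjamini-Hochberg over all genes, called under 0.05). Standard errors were derived from the fold change and F statistic. Alternatives used DESeq2 1.42.0, limma 3.58.1 on log2(TPM + 1), other scalings, no filter, only the 2 groups compared, a replicate block and leaving out each library. Lengths and coordinates are GENCODE M21 (GRCm38); promoters are RefSeq (GRCm38.p6). For 13 tested members over 10% of exonic length is shared with another gene.

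Members and gene lists were chosen with earlier results of these data known. Named genes (47) were all mitochondrial members, the 6 highest and 6 lowest called nuclear members per comparison whose average log2 CPM was at least 2 and whose libraries did not overlap, tissue isoforms, c-ring genes and complex I core subunits, of which 1 is not reported here; others named for their role or as list members were added with their values known. In simulated data (13167 genes) the HG against NC test recovered 38.8%, 65.2% and 92.4% of genes changed by 0.25, 0.5 and 1, with 5.11% of calls false. Only 200 genes were changed in the simulation, so these shares do not carry over directly to the data, where 3927 were called.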

Additional observations from a re-analysis of the deposited data

How the results depend on the processing

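Counts of called members depended on scaling and on single libraries, while the difference in the ratio of the genomes shifted under each setting by less than the SD pooled over the 2 groups compared. In HG against NC, nuclear calls numbered 3, with 6 under library size alone, 11 under limma and 1 to 10 when a library was left out; mitochondrial calls numbered 2, with 1 when only the 2 groups were fitted and 1 to 3 when a library was left out. In HG-SIG against HG, 51 nuclear calls became 13 with library size alone (7 higher), 18 with limma (15 higher) and 29 to 65 when a library was left out; 8 mitochondrial calls became 2, 1 and 5 to 10. In HG-SIG against NC, 48 nuclear calls became 23 with library size alone (18 of them higher), 36 with limma (32 higher) and 31 to 53 when a library was left out; 7 mitochondrial calls became 5 with library size alone (4 higher), 4 with limma (all higher) and 3 to 9 when a library was left out. TMM sets the bulk of genes level by construction, whereas with library size alone and limma the median of all genes was at 0.17 and 0.19 in HG-SIG against HG. The log2 ratio of the genomes ranged from -0.04 to 0.09, -0.04 to 0.07 and -0.04 to 0.10 over left-out libraries in the 3 comparisons.

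The labels do not say that replicate numbers pair the libraries, and they were not taken to: deviations of same-numbered libraries correlated at -0.0027 to 0.099 and of others at -0.077 to 0.041. For 8 of 9 libraries the highest correlation was with a library of the same number, and for 4 with both of them, a hint from the data and not the design. With the replicate number as a block, nuclear calls were 6, 62 and 56 and mitochondrial calls 2, 11 and 7 in the 3 comparisons, in the order above.

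Of 126 named member and comparison pairs, 34 changed sign under library size alone, 45 under limma and 64 under at least 1 setting. Those with a call on either side of the change numbered 17 under library size alone and 28 under limma, with 0 under other settings, and are given here. With library size alone in HG-SIG against HG, Cox7a2l was at 0.13, Ndufs1 at 0.11, Ndufv1 at 0.033 and mt-Cytb at 0.13. In HG-SIG against NC on that scale, Cox5a was at 0.048, Cox5b at 0.011, Cox6a1 at 0.0088, Cox7a2l at 0.18, Ndufs1 at 0.14, Ndufs7 at 0.17, Ndufv1 at 0.10, Ndufv2 at 0.19, mt-Nd2 at 0.17, mt-Co1 at 0.074, mt-Co2 at 0.041, mt-Atp6 at 0.024 and mt-Cytb at 0.15. With limma in HG-SIG against HG, Cox5a was at 0.041, Cox6b1 at 0.029, Cox7a2l at 0.17, Atp5g3 at 0.015, Ndufs1 at 0.15, Ndufs3 at 0.14, Ndufv1 at 0.077, Ndufv2 at 0.12, mt-Co1 at 0.043, mt-Co2 at 0.014, mt-Atp6 at 0.0078 and mt-Cytb at 0.17. In HG-SIG against NC with limma, Cox5a was at 0.095, Cox5b at 0.057, Cox6a1 at 0.055, Cox7a2l at 0.22, Cox8a at 0.029, Atp5g3 at 0.16, Ndufs1 at 0.18, Ndufs7 at 0.21, Ndufv1 at 0.15, Ndufv2 at 0.23, mt-Nd2 at 0.22, mt-Co1 at 0.12, mt-Co2 at 0.090, mt-Atp8 at 0.013, mt-Atp6 at 0.074 and mt-Cytb at 0.20. Beyond this scaling, the cause was not tested.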
